A study of Mus musculus with 11 samples.

Results

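The 6 potassium channel genes Kcnj13, Kcna10, Kcnh7, Kcnma1, Kcnj10 and Kcnj16 were followed through the development of the mouse organ of Corti. The genes were taken by symbol, 6 of 24898 genes in the deposited tables. All 6 belong to a list of 75 potassium channel subunit genes found in the tables by their Kcn symbols, 60 for pore-forming and 15 for auxiliary subunits. The data were single-cell RNA profiles of the floor of the cochlear duct from wild-type CD1 mice in 2 libraries from embryonic day 14 (E14), 3 from E16, 4 from postnatal day 1 (P1) and 2 from P7. Each library was made from the pooled cochleae of several animals of either sex, so that variation between individual animals was not measured. No cells were sorted, no animal was treated, and all ages came from the same strain and genotype.

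Potassium leaves hair cells through channels in their basolateral membrane, and the set of channels that a hair cell carries is known to change as it matures towards the onset of hearing. Inward rectifiers of the Kcnj family hold the membrane near the potassium equilibrium potential. Voltage-gated channels (Kcna, Kcnh) and the large-conductance calcium-activated BK channel (Kcnma1) repolarise the cell. Supporting cells and glia carry other inward rectifiers and are known to take up potassium that hair cells and neurons release. Kcnj13 encodes the inward rectifier Kir7.1, known from choroid plexus and retinal pigment epithelium. Kcna10 encodes a Shaker-type voltage-gated channel, Kcnh7 a channel of the ether-a-go-go related (ERG) group, and Kcnj10 and Kcnj16 the inward rectifiers Kir4.1 and Kir5.1, which can assemble in one channel.

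The 6 genes lie on 5 chromosomes of GRCm38 (mm10), the build to which the reads were aligned; positions are from GENCODE vM21. Kcnj13 (ENSMUSG00000079436.3) occupies chr1:87386363-87394729 on the minus strand, inside Gigyf2, which runs on the opposite strand from 87326998 to 87450796. Of the 1270 exonic bases of Kcnj13, 623 are also exonic in Gigyf2. The sources used here do not state whether reads were counted by strand, so that the Kcnj13 values are uncertain to that extent and are given with those of Gigyf2. Kcna10 (ENSMUSG00000042861.7, chr3:107183056-107195721, plus strand) has its coding sequence in 1 segment and overlaps no other annotated gene. Kcnh7 (ENSMUSG00000059742.10) spans 490874 bases of chromosome 2, from 62693414 to 63184287 on the minus strand, and shares 696 exonic bases with Gca on the opposite strand. Kcnma1 (ENSMUSG00000063142.15, chr14:23289431-24014491, minus strand) has 38 annotated transcripts and shares 1016 exonic bases with the opposite-strand lncRNA 4930519K11Rik. Kcnj10 (ENSMUSG00000044708.5, chr1:172341210-172374085, plus strand) and Kcnj16 (ENSMUSG00000051497.15, chr11:110968033-111027968, plus strand) overlap no other annotated gene.

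The sequence upstream of the annotated transcript start is shown for Kcnj13 and Kcna10 because these 2 genes both rose in inner hair cells between E16 and P1. The bases are from the RefSeq promoter table (GRCm38.p6), read 5′ to 3′ on the strand of the gene. The capitals mark the letters CAGNTG, a form of the E-box that basic helix-loop-helix factors recognise. Binding of a factor was not tested. Kcnj13 is shown from chr1:87394730-87394979 (minus strand, 250 bases) and Kcna10 from chr3:107182893-107183055 (plus strand, 163 bases).
Kcnj13: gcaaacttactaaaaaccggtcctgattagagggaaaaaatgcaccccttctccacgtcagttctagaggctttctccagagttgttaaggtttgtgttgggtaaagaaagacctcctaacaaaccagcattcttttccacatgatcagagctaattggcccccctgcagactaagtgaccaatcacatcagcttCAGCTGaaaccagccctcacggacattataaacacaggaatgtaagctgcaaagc
Kcna10: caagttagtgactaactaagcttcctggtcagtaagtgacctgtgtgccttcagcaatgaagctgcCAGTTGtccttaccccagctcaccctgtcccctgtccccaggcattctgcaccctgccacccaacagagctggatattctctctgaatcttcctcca
Each gene held 1 match to CAGNTG on either strand in the 250 bases before its RefSeq start, with its first base at position -55 for Kcnj13 and -184 for Kcna10, counted from the RefSeq start. For Kcna10 the RefSeq start lies downstream of the GENCODE start, where the bases shown end. Its position of -184 is therefore not counted from the end of those bases. The same letters stood in 44.8% of all 32851 promoters of that length, so that a match is a common feature. The Kcnj13 window also held the TATA box letters TATAAA from position -29, found in 12.4% of promoters. No CAGNTG match lay in the windows of Kcnh7, Kcnma1 and Kcnj10, and Kcnj16 had 1 in 1 of its 4 windows.

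Levels are given in CPM, the usual scaling of a gene's share of the unique molecular identifiers (UMIs, 1 per captured transcript) of a cell. Each value is the mean of that share over a library's cells of the class. The libraries held 1247 to 5598 cells, with median depths of 2478 to 5647.5 UMIs per cell, and 18 to 168 cells of an age shared a barcode with a cell of another library. Cells were gated on UMIs of marker genes, none of them a potassium channel gene. A cell with at least 5 of 12 hair cell markers (among them Pou4f3, Atoh1 and Pvalb) was taken as a hair cell (HC); with at least 2 inner or outer markers, and more of one kind than of the other, it was taken as an inner (IHC) or outer (OHC) hair cell. This gave 1849 HCs of 30634 cells, of which 352 were IHCs, 870 OHCs and 627 of no type, beside 28667 other cells. A further 118 cells that also passed the gate of another cell type were left out as mixed. IHCs numbered 14 to 45 per library at E16, 33 to 56 at P1 and 40 to 41 at P7, and OHCs 14 to 47, 90 to 278 and 62 to 75. At E16, 409 of 580 HCs had no type, and at E14 no cell passed the OHC gate. The summed inner markers stood at 2336 to 3529 CPM in the IHCs of the P1 libraries and at 6.07 to 23.1 CPM in the OHCs. The summed outer markers stood at 76.8 to 175 CPM in these IHCs and at 801 to 1023 CPM in these OHCs. At P7, OHCs held 209 and 105 CPM of inner markers, against 3985 and 3962 CPM in IHCs. IHCs held 715 and 711 CPM of outer markers at P7, against 13951 and 13960 CPM in OHCs. Slc26a5, which encodes the OHC motor protein prestin, was at 0 in the OHCs of 3 of the 4 P1 libraries. The marker lists came mostly from lists made on these libraries, so that the gates are a description and not an independent check.

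**Figure D1:**
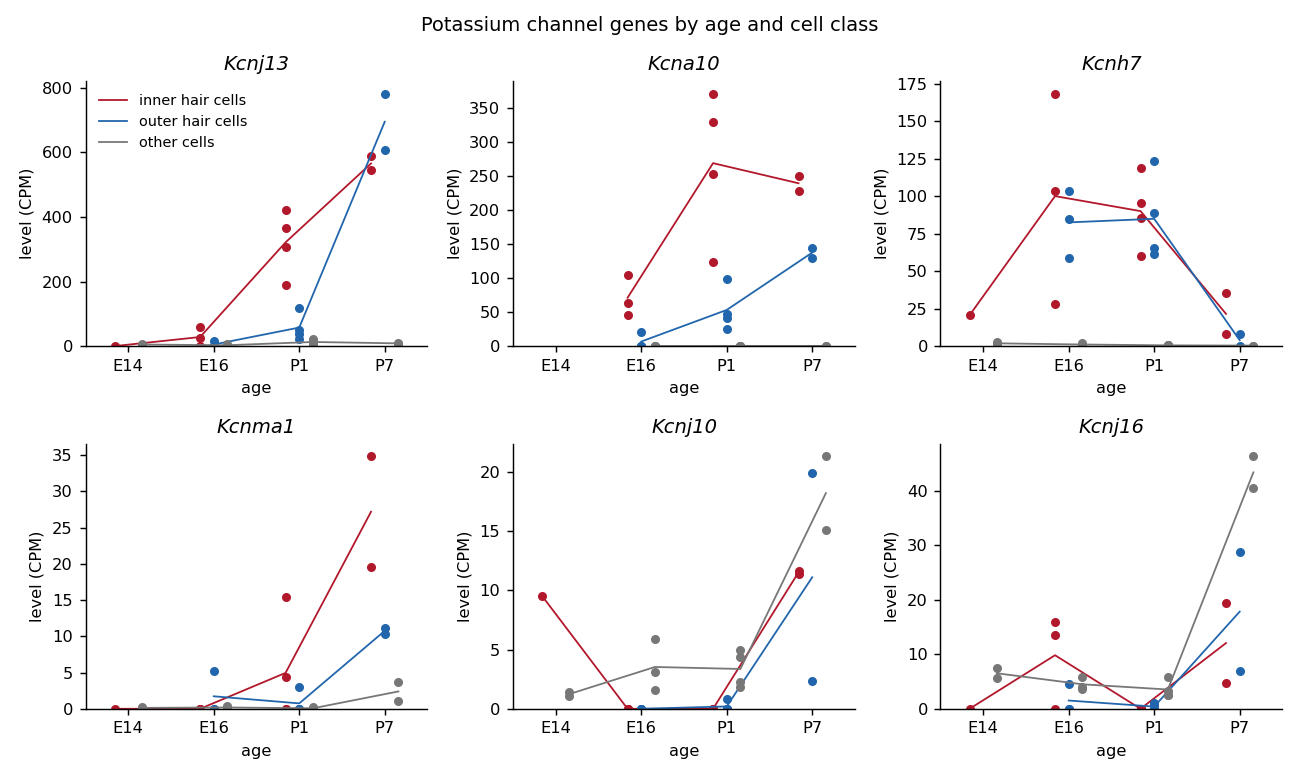
Levels of the 6 genes (CPM, linear axes from 0, scaled per panel) by age in IHCs (red), OHCs (blue) and other cells (grey); each point is a library with at least 5 cells of the class and lines join the means. Kcnj13 in OHCs rose from 23.3 to 119 CPM at P1 to 608 and 782 CPM at P7, while Kcnh7 was at 0 and 7.89 CPM in the P7 OHCs. Kcna10 is not drawn at E14, where the table does not list it.

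Kcnj13 was low over all HCs at E16, was higher in HCs than in other cells at P1, and reached its highest levels in both HC types at P7. No UMI of Kcnj13 was found in the 49 HCs at E14, which allows a level of up to 9.54 CPM (3 UMIs over the group, counting error only), above the 4.02 and 5.68 CPM of the other cells, so that no difference is read there, although a test without the filter described below called HCs lower (log2 difference -0.57, limma adjusted p = 0.0108). At E16, the HC level was 0, 9.04 and 6.68 CPM in libraries 1, 2 and 3, and that of the other cells was 1.29, 0.683 and 6.02 CPM. The groups overlapped at E16, and the gene lay under the filter for a test (a mean of 10 CPM over both classes). At P1, HCs stood at 173, 90.7, 55.8 and 85.1 CPM in libraries 1 to 4 and other cells at 7.44, 6.85, 14.0 and 22.8 CPM. HCs were higher in 4 of 4 libraries, a mean of 101 against 12.8 CPM, with a log2 difference of 2.24 ± 0.28 (SE; limma adjusted p = 3.94e-05). At P7, HCs reached 694 and 594 CPM in libraries 4 and 5, against 10.8 and 6.03 CPM in other cells. The gene passed the filter at P7 through its HC level alone, so the test is given without any filter: the log2 difference was 5.16 ± 0.16 (adjusted p = 1.42e-13). These differences, like all below, are between values of log2(CPM + 10), which understates the change of low genes. They were tested with limma across all genes, with the library as a block for comparisons within an age. Differences between ages within 1 HC type had no block. With 2 libraries the fit has 1 residual degree of freedom, so that p-values at P7 and E14 rest on the spread pooled over genes. Other fits also drew mostly on the pooled spread. At P1, the fit of IHCs against OHCs had 3 residual degrees of freedom, against 35.0 from the pooled spread. At E16 that fit had 2 against 6970. The fit of the change of their difference from P1 to P7 had 4 against 29.1.

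The levels of Gigyf2, which encodes a translational repressor, are given for the same classes. Pillar cells are supporting cells between the IHCs and the OHCs, and Deiters cells lie beneath the OHCs. At P7, pillar and Deiters cells had 24.7 and 34.1 CPM of Gigyf2 and no Kcnj13 UMI in 135 cells. This allows a share of cells with a UMI of up to 2.22%. This limit, like those below, is on cells in which a UMI was found and not on cells that express the gene. In P1 libraries the IHCs had 36.8 to 54.0 CPM of Gigyf2 and 189 to 422 CPM of Kcnj13. In P7 OHCs Gigyf2 itself was at 100.02 and 70.8 CPM, above its 18.6 and 25.4 CPM in other cells. The part of shared reads in the Kcnj13 values was not tested.

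Between IHCs and OHCs, Kcnj13 differed at P1, and no such difference passed the test at P7. In the IHCs of P1 libraries 1 to 4 the level was 422, 308, 189 and 367 CPM, and in the OHCs of the same libraries 119, 38.1, 23.3 and 49.7 CPM. Every IHC value lay above every OHC value. The means were 321 ± 99.9 and 57.4 ± 42.2 CPM (SD, n = 4), a ratio of 5.60, and the log2 difference was 2.43 ± 0.16 (limma adjusted p = 7.03e-15). At P7 the IHCs stood at 588 and 544 CPM and the OHCs at 782 and 608 CPM. OHCs were higher in both libraries, but the log2 difference of -0.28 ± 0.16 did not pass the test (adjusted p = 0.281). The change of the inner minus outer difference from P1 to P7 was -2.71 ± 0.25 on the log2 scale, and it passed the test of the interaction (adjusted p = 1.11e-09). At E16, IHCs were at 0, 26.5 and 57.6 CPM and OHCs at 0, 14.7 and 0 CPM, and the groups overlapped (log2 difference 1.11 ± 0.79, adjusted p = 0.734).

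Kcnj13 rose in both HC types between E16 and P1. In IHCs the log2 difference was 3.45 ± 0.47 (adjusted p = 7.7e-05). From P1 to P7 both P7 values of the IHCs lay above all 4 P1 values, but the difference of 0.85 ± 0.53 did not pass (adjusted p = 0.592). In OHCs the level rose by 2.13 ± 0.49 from E16 to P1 without the filter (adjusted p = 0.0432), and this test is given because the E16 mean of 4.89 CPM lay under it. From P1 to P7 the OHC level rose by 3.56 ± 0.54 (adjusted p = 0.000461). The first of these OHC calls was lost with mean natural-log values (adjusted p = 0.105) and the second with log2(CPM + 1) (adjusted p = 0.0574). On the linear scale the mean of the OHCs was 12.1 times higher at P7 than at P1 (18.8 times without P1 library 1), and that of the IHCs 1.76 times. Libraries of different ages were different collections of animals captured separately, so that age and collection cannot be told apart in any comparison between ages.

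The share of cells with a Kcnj13 UMI followed the levels. At P1 it was 62.2 to 85.1% of IHCs and 12.5 to 41.3% of OHCs, at median depths of 7974 and 7791 UMIs (medians over libraries). In pillar and Deiters cells, which served as background, it was 0 to 1.80% at a median of 6144 UMIs. After every cell was thinned to 1500 UMIs, which left out no cell at P1, the shares were 28.9 to 44.7%, 2.08 to 14.3% and 0% in all 4 libraries. Outside HCs, the gene was found in Koelliker's organ, the transient epithelium medial to the IHCs. There it stood at 8.68, 7.26, 16.4 and 26.8 CPM in P1 libraries 1 to 4, with thinned shares of 0.609 to 3.58%. At P7, cells gated as Hensen, Claudius or outer sulcus cells had 63.5 and 44.9 CPM, in 53 and 34 cells, where 11 of 87 cells held all 32 UMIs.

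Kcna10 was found in HCs and hardly at all outside them. The E14 table does not list the gene. At E16, HCs had 13.4, 30.9 and 13.8 CPM and other cells 0.106, 0 and 0 CPM. The mean over both classes was under 10 CPM, so the gene was not tested there; without that filter the log2 difference was 1.498 ± 0.25 (limma adjusted p = 0.00739). At P1, HCs stood at 151, 104, 82.3 and 35.5 CPM in libraries 1 to 4, and other cells at 0.386, 0.207, 0.0605 and 0.258 CPM. The groups were far apart in all 4 libraries, with a log2 difference of 3.20 ± 0.28 without the filter (adjusted p = 0.000323). At P7, HCs had 172 and 171 CPM and other cells 0.429 and 0 CPM, a log2 difference of 4.15 ± 0.21 without the filter (adjusted p = 8.15e-11). The tests without the filter are given because Kcna10 passed it at both ages through its HC level alone. No Kcna10 UMI was found in 135 pillar and Deiters cells, 162 glia or 810 Koelliker's organ cells at P7, which allows shares of cells with a UMI of up to 2.22%, 1.85% and 0.370%.

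Kcna10 was higher in IHCs than in OHCs at P1 and, by less, at P7. The IHCs of P1 libraries 1 to 4 had 371, 328, 252 and 123.03 CPM and the OHCs 98.7, 47.3, 40.9 and 25.3 CPM. Every IHC value was above every OHC value, with means of 269 ± 109 and 53.1 ± 31.8 CPM (SD, n = 4) and a log2 difference of 2.16 ± 0.16 (adjusted p = 2.38e-13). At P7 the IHCs had 250.1 and 228 CPM and the OHCs 129.98 and 145 CPM, a log2 difference of 0.76 ± 0.24 (adjusted p = 0.027). The call at P7 was lost with at least 7 hair cell markers in the gate (adjusted p = 0.0626) and without the library block (adjusted p = 0.175). The inner minus outer difference changed by -1.40 ± 0.28 from P1 to P7 (interaction, adjusted p = 0.000662), a call that was also lost without the block (adjusted p = 0.36). At E16 the IHCs had 63.5, 104 and 45.3 CPM and the OHCs 0, 20.1 and 0 CPM; the values did not overlap, but the log2 difference of 2.42 ± 0.78 did not pass (adjusted p = 0.133).

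Kcna10 rose from E16 to P1 in IHCs, by 1.74 ± 0.38 (adjusted p = 0.00714). In OHCs, whose E16 mean of 6.69 CPM lay under the filter, the log2 difference was 2.003 ± 0.49 and did not pass without the filter (adjusted p = 0.0530). With the filter it passed (adjusted p = 0.0165), but not without P1 library 1 (adjusted p = 0.0546) or P1 library 2 (adjusted p = 0.0517). From P1 to P7, the IHC means were 269 and 239 CPM (log2 difference -0.06 ± 0.43, adjusted p = 0.991). The OHC means were 53.1 and 137 CPM, with the P7 values above all P1 values, but the log2 difference of 1.35 ± 0.55 did not pass (adjusted p = 0.156). It passed in 3 of 20 alternatives, with mean natural-log values (adjusted p = 0.00688) and with the gate at 1 or 3 type markers (adjusted p = 0.0456 and 0.0202).

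**Figure D2:**
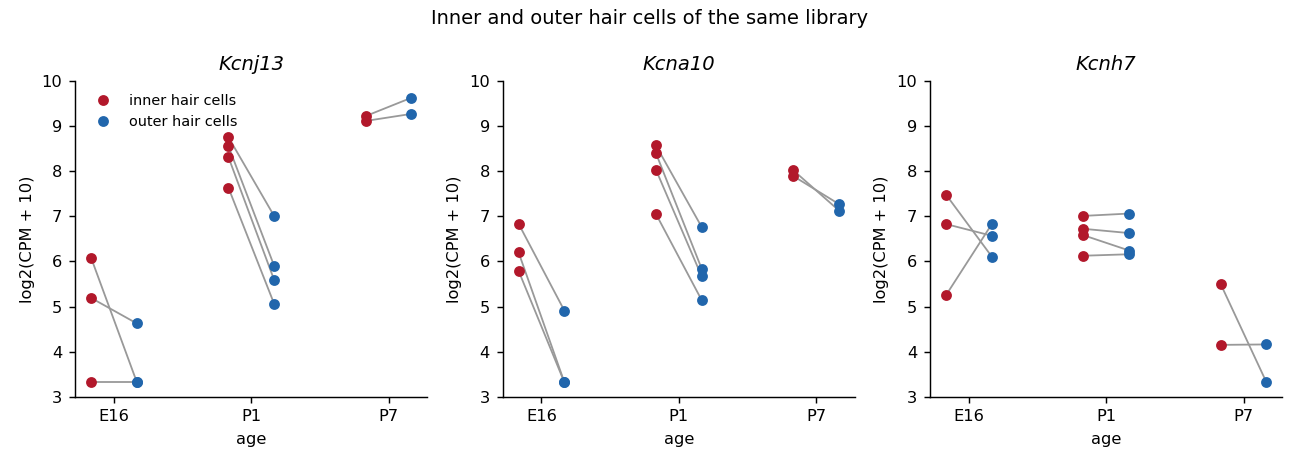
Kcnj13, Kcna10 and Kcnh7 in IHCs (red) and OHCs (blue) of the same library at E16, P1 and P7, as log2(CPM + 10); a grey line joins the 2 types of a library. For Kcnj13 all 4 lines fall from IHC to OHC at P1 and both rise at P7, for Kcna10 all 9 lines fall, and for Kcnh7 at P1 the lines are near level.

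Kcnh7 was the only one of the 6 genes that reached the filter in HCs and other cells at E14 and E16, through its HC level alone. At E14, HCs had 54.5 and 11.0 CPM in 19 and 30 cells, against 1.27 and 2.42 CPM in other cells. The log2 difference was 1.64, with an adjusted p of 0.0412 after the filter and 0.128 without it, and 3 of 10 alternatives with a test called it (adjusted p from 0.0072 to 0.243). The difference was 2.52 in library 1 alone and 0.756 in library 2 alone. At E16 the HC levels were 104, 83.5 and 85.8 CPM and those of other cells 1.80, 0.642 and 0.724 CPM. HCs were higher in 3 of 3 libraries, by 3.19 ± 0.17 on the log2 scale without the filter (adjusted p = 5.95e-05). At P1 the HC levels were 58.9, 72.0, 91.1 and 125 CPM in libraries 1 to 4, against 0.328 to 0.595 CPM in other cells. The log2 difference was 3.16 ± 0.17, again without the filter, which the gene passed through its HC level alone (adjusted p = 5.26e-05). At P7 HCs were down to 13.2 and 12.04 CPM, with 0.334 and 0.330 CPM in other cells; the mean over both classes was then under the filter, and without it the log2 difference was 1.13 ± 0.25 (adjusted p = 0.00193).

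Kcnh7 did not differ detectably between the HC types. At P1 the IHCs had 59.9, 85.8, 95.7 and 119 CPM and the OHCs 61.5, 65.7, 89.0 and 124 CPM. The ranges overlapped almost fully, and the log2 difference was 0.09 ± 0.17 (adjusted p = 0.837). At P7 the IHCs had 35.2 and 7.76 CPM and the OHCs 0 and 7.89 CPM, from 10 UMIs and 4 UMIs in all (log2 difference 1.08 ± 0.51, adjusted p = 0.18). The P7 difference was 2.18 in library 4 alone and -0.0102 in library 5 alone. From E16 to P1 the log2 differences of 0.09 ± 0.49 in IHCs and 0.02 ± 0.38 in OHCs did not pass (adjusted p = 0.936 and 0.978). From P1 to P7, Kcnh7 fell by 2.78 ± 0.40 on the log2 scale in OHCs, from a mean of 85.0 to 3.94 CPM, in the test without the filter (adjusted p = 0.00221); the P7 mean lay under that filter. In IHCs the difference was -1.79 ± 0.56 and did not pass (adjusted p = 0.105). It passed in 4 of 20 alternatives, among them the gate at 1 type marker (adjusted p = 0.0136) and the fits without E16 library 1 (adjusted p = 0.0381) or E16 library 3 (adjusted p = 0.0251), which changed the pooled spread and not the difference.

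Kcnma1, the pore subunit of the BK channel that shapes the fast potassium current of mature IHCs, was low in HCs before P7. No UMI was found in HCs at E14. At E16, HCs had 0, 0 and 5.39 CPM, and at P1 0.997, 0, 0 and 4.50 CPM. Of the 12 UMIs at P1, 7 were in IHCs (15.4 CPM in library 4 and 4.39 CPM in library 1), 4 in OHCs and 1 in an HC of no type. At P7 the IHCs had 34.8 and 19.6 CPM and the OHCs 10.4 and 11.1 CPM, from 16 UMIs in 14 of 81 IHCs and 11 UMIs in 10 of 137 OHCs. IHCs were higher in both libraries, but the log2 difference of 0.81 ± 0.46 did not pass (limma adjusted p = 0.295). Other cells had 1.13 and 3.66 CPM at P7. The gene did not reach the filter in HCs and other cells, and without it the log2 difference was 1.09 ± 0.31 (adjusted p = 0.0105). With at least 7 hair cell markers in the gate the difference was 1.24 ± 0.30 (adjusted p = 7.2e-05). There the filter was reached through the HC level alone, so that nothing more is read from that test. No UMI was found in 810 Koelliker's organ cells or 135 pillar and Deiters cells at P7, which allows shares of cells with a UMI of up to 0.370% and 2.22%.

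**Figure D3:**
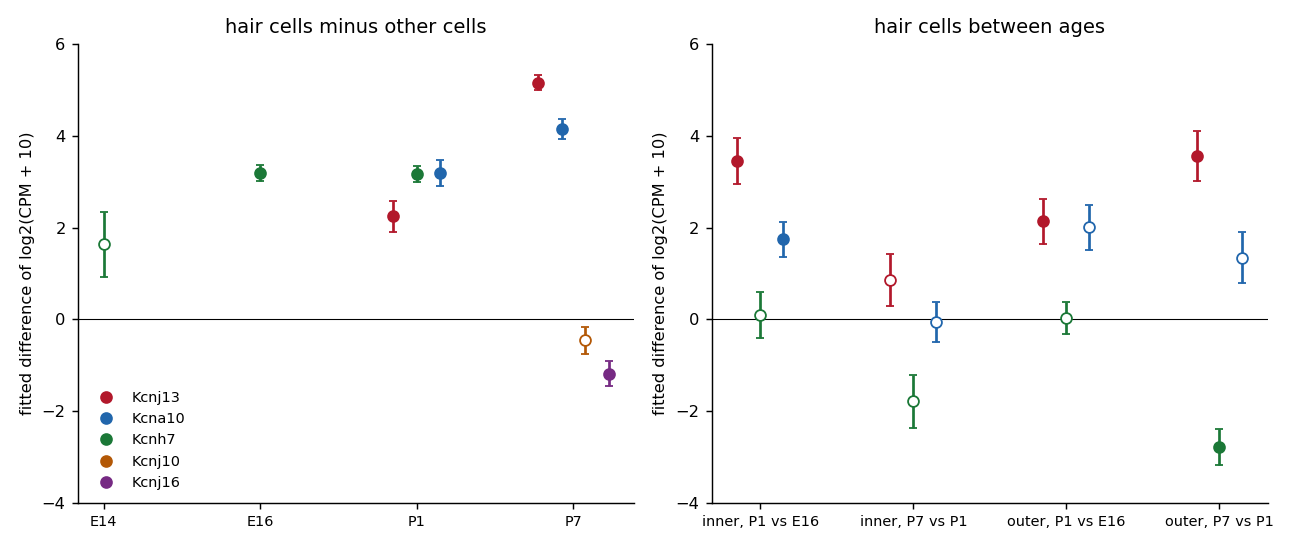
Fitted differences of log2(CPM + 10), with bars of 1 SE, for each of the 6 genes that reached the filter on low values in that comparison: HCs minus other cells at each age (left), and between ages within IHCs and OHCs (right); filled points passed the test fitted over all genes without that filter (limma adjusted p under 0.05), open points did not. Kcnj13 goes from 2.24 at P1 to 5.16 at P7 on the left, and Kcnh7 stands at -2.78 for OHCs from P1 to P7 on the right.

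Between HCs and other cells, 1 of 1 members tested was called at E14, 1 of 1 at E16, 3 of 3 at P1 and 3 of 4 at P7. Calls were frequent among all genes tested in these comparisons, with 9.93% called at E14, then 40.2% (E16), 69.3% (P1) and 64.2% (P7). Kcna10, Kcnh7 and, at P7, Kcnj13 passed the filter through their HC levels alone, so that nothing is read from these counts of members. The same holds for the OHC counts between ages below, where Kcnj13 and Kcna10 at E16 and Kcnh7 at P7 lay under 10 CPM. Between IHCs and OHCs, 2 of 3 tested members were called at P1, where 11.7% of all genes were, 0 of 3 by limma at E16 (0.849% of all genes; 1 of the 3 at an unadjusted p under 0.05) and 1 of 6 at P7 (12.3%). Between ages, 2 of 3 were called in IHCs from E16 to P1 (6.86% of all genes) and 0 of 3 by limma from P1 to P7 (2.55%; 1 of the 3 at an unadjusted p under 0.05). In OHCs 2 of 3 were called over each interval (11.2% and 9.78%). In the test of the change of the inner minus outer difference, 2 of 3 were called (10.4% of all genes).

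At P7, Kcnj10 and Kcnj16 were higher in pillar and Deiters cells than in other non-hair cells, and Kcnj10 was also higher in glia. In pillar and Deiters cells at P7, Kcnj10 stood at 165 and 180.5 CPM, against 8.47 and 13.9 CPM in all other non-hair cells. The log2 difference was 3.12 ± 0.24 (limma adjusted p = 1.17e-08). Kcnj16 stood at 263 CPM in both libraries, against 30.6 and 36.2 CPM, a log2 difference of 2.66 ± 0.20 (adjusted p = 1.04e-08). Both members tested were called, where 30.2% of all genes were. Thinned to 1500 UMIs, 17.1 and 27.7% of these cells held a Kcnj10 UMI and 35.7 and 30.8% a Kcnj16 UMI (unthinned 47.7 to 51.4% and 70.8 to 74.3%), with 0% for both genes in mesenchymal cells.

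At P1 both genes were lower in the same class. Kcnj10 was at 31.6, 32.2, 26.0 and 31.2 CPM in the pillar and Deiters cells of libraries 1 to 4, and at 0.799 to 4.10 CPM in other non-hair cells (log2 difference 1.71 ± 0.15, adjusted p = 0.00321 without the filter, which Kcnj10 passed through this class alone; with the filter 33.6% of all genes were called). Kcnj16 was at 21.8, 8.54, 6.62 and 18.6 CPM, which overlapped its 18.5, 0, 35.8 and 9.60 CPM in Hensen, Claudius and outer sulcus cells, and did not reach the filter; without it the log2 difference of 0.81 ± 0.22 did not pass (adjusted p = 0.0754). All P7 values of both genes lay above all P1 values, 5.72 times higher in the mean for Kcnj10 and 18.97 times for Kcnj16. An exact permutation test of the difference gave p = 0.133 (two-sided) for each gene, the smallest that 2 against 4 libraries allow.

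The pair was also compared in glia, gated on Mbp, Pmp22 and other myelin genes and found only at P7 (44 and 118 cells). Kcnj10 was at 89.4 and 96.0 CPM in glia and at 13.1 and 14.8 CPM in other non-hair cells, a log2 difference of 2.102 ± 0.36 (adjusted p = 5.14e-05). Kcnj16 was at 0 and 3.33 CPM in glia, against 41.5 and 50.0 CPM, a log2 difference of -2.27 ± 0.53 without the filter (adjusted p = 0.00985); its level in glia lay under the filter. With the filter 29.6% of all genes were called in this comparison. Kcnj16 was also found at 28.3 and 36.9 CPM in Koelliker's organ cells at P7, where Kcnj10 stood at 1.32 and 2.42 CPM.

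**Figure D4:**
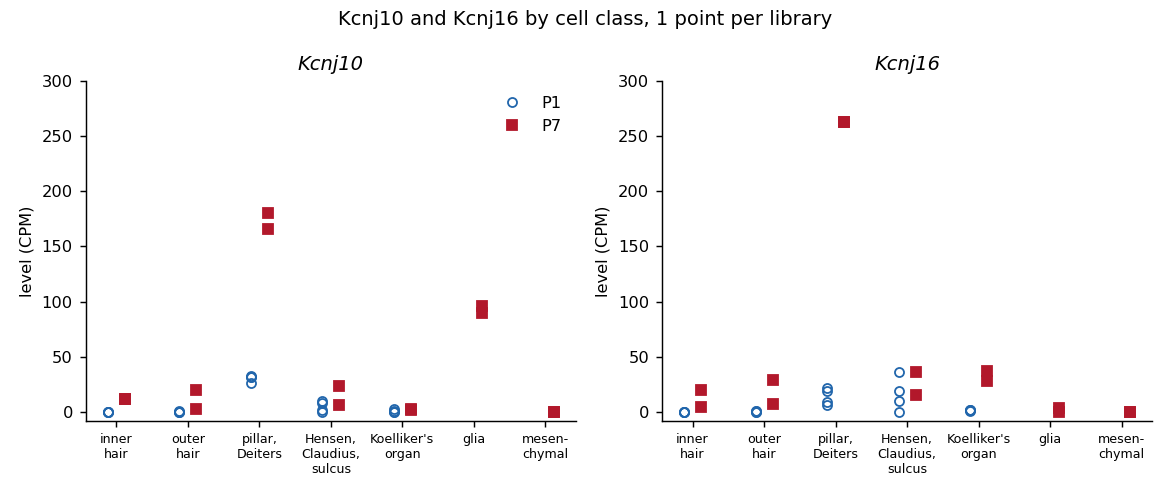
Kcnj10 (left) and Kcnj16 (right) in CPM by gated cell class; open circles are the 4 P1 libraries and filled squares the 2 P7 libraries, whose Kcnj16 values in pillar and Deiters cells coincide at 263 CPM. Glia hold Kcnj10 at 89.4 and 96.0 CPM but Kcnj16 at 0 and 3.33 CPM, and IHCs and OHCs hold at most 28.8 CPM of either gene.

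In HCs both genes were low. At P1, no UMI of either was found in the 181 IHCs, which allows a share of cells with a UMI of up to 1.66%. At P7, HCs had 5.61 and 16.7 CPM of Kcnj10, against 15.1 and 21.3 CPM in other cells, and the log2 difference of -0.46 ± 0.27 did not pass (adjusted p = 0.13), though it did with summed UMIs (-0.63, adjusted p = 0.0149) and with at least 7 hair cell markers in the gate (-0.75, adjusted p = 0.0183). Kcnj16 was at 5.73 and 25.0 CPM in HCs and at 40.4 and 46.3 CPM in other cells, with a log2 difference of -1.18 ± 0.24 (adjusted p = 2.44e-05). It was -0.68 in library 5 alone and -1.68 in library 4 alone. Both results depended on the mixed cells. In the 40 mixed cells at P7, 38 of which passed the gate of pillar and Deiters cells, Kcnj10 stood at 127 and 227 CPM and Kcnj16 at 179 and 350.4 CPM. With these cells kept among the HCs, the difference was 0.65 for Kcnj10 (adjusted p = 0.0126) and 0.13 for Kcnj16 (adjusted p = 0.624). In the HCs without them, all 12 pillar and Deiters markers were still above 0, with a summed level of 278 and 379 CPM, against 10102 and 9575 CPM in the pillar and Deiters cells; their part in the remaining Kcnj10 and Kcnj16 UMIs was not tested. The 2 HC types did not differ detectably at P7 (log2 difference 0.17 ± 0.49 for Kcnj10 and -0.30 ± 0.47 for Kcnj16), but with the mixed cells kept both were higher in OHCs (-1.35, adjusted p = 0.0138, and -1.89, adjusted p = 5.82e-05).

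The other potassium channel genes are given as a description, since many of them passed the filter through 1 class or age alone. Between HCs and other cells this held for 8 of 9 pore genes and both auxiliary genes tested at P1, 3 of 4 and 3 of 3 at E16, 9 of 12 and 3 of 3 at P7 and 2 of 3 pore genes at E14, so that nothing is read from their counts. At P1, 8 of 9 other pore genes tested were higher and 1 lower, and both auxiliary genes tested were higher. Among all genes 69.3% were called at P1, with 3685 of 9131 higher. Among the largest differences were those of Kcnmb2, a BK beta subunit (3.41 ± 0.27), Kcns3, a silent voltage-gated subunit (3.20 ± 0.19), and the ERG channel Kcnh2 (2.50 ± 0.15). Kcnn2, the small-conductance SK channel of the efferent synapse (2.31 ± 0.13), Kcnh8 (1.70 ± 0.15) and Kcnip3 (1.61 ± 0.15) were also higher. At E16, 2 of 4 other pore genes were higher (Kcns3 by 2.89 ± 0.20 and Kcnh6 by 1.17 ± 0.25) and Kcnk1 was lower (-0.81 ± 0.15); the auxiliary genes Kcnmb2 (3.20 ± 0.20) and Kcnip3 (1.85 ± 0.22) were higher and Kcnmb4 lower (-0.55 ± 0.21), where 40.2% of all genes were called. At E14, 2 of 3 were higher, Kcns3 by 2.12 ± 0.54 and Kcnh6 by 2.002 ± 0.54 (9.93% of all genes called). At P7, 9 of 12 other pore genes were higher and 3 lower (64.2% of all genes called, 3171 of 9077 higher), led by Kcnn2 (3.42 ± 0.21), Kcns3 (2.73 ± 0.22) and Kcnh2 (2.73 ± 0.23). Kcna1 (-2.76 ± 0.27) and Kcnk2 (-2.06 ± 0.27) were lower in HCs at that age. The other cells at P7 included the glia, in which Kcna1 was higher than in other non-hair cells (given below).

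Between IHCs and OHCs at P1, where 11.7% of all genes were called, 1 of 10 other pore genes was higher in IHCs (Kcnn2, 0.79 ± 0.21) and 3 were higher in OHCs, among them Kcna6 (-1.28 ± 0.28) and Kcnk1 (-0.72 ± 0.17). The auxiliary genes Kcnip3 (1.66 ± 0.24) and Kcnab2 (1.38 ± 0.26) were higher in IHCs. At P7, 3 of 11 other pore genes were called (12.3% of all genes). Kcnj11, a subunit of the ATP-sensitive channel, was higher in IHCs (1.81 ± 0.47), as was Kcnab2 (1.48 ± 0.43), while Kcna2 (-1.42 ± 0.48) and Kcnk1 (-1.34 ± 0.25) were higher in OHCs. Of 12 other pore genes tested at E16, 0 were called by limma, and 3 had an unadjusted p under 0.05. From E16 to P1, Kcnh2 rose in both types, by 2.01 ± 0.51 in IHCs and 1.87 ± 0.48 in OHCs; Kcnn2 (2.74 ± 0.46) and Kcnab2 (1.71 ± 0.51) rose and Kcnq3 fell (-1.94 ± 0.49) in IHCs. From P1 to P7, Kcnk3 rose in IHCs (2.03 ± 0.51) and Kcnn2 in OHCs (1.74 ± 0.43), where Kcna6 (-1.51 ± 0.45) and Kcnh6 (-1.47 ± 0.40) fell. The inner minus outer difference changed from P1 to P7 for Kcnj11 (2.26 ± 0.46), Kcnh6 (1.51 ± 0.47), Kcnn2 (-1.34 ± 0.35) and Kcnip3 (-1.60 ± 0.42). In that test 10.4% of all genes were called. Several genes called here passed the filter through 1 type or age alone. Between types these were Kcna6 and Kcnab2 at P1 and Kcnj11 and Kcna2 at P7. Between ages they were Kcnh2, Kcnn2, Kcnq3 and Kcnab2 in IHCs from E16 to P1. From P1 to P7 they were Kcnk3 in IHCs and Kcna6 and Kcnh6 in OHCs. For the change of the inner minus outer difference, Kcnj11 lay under the filter over both types at P1, and Kcnh6 did so at P7. The tests of all these genes are given with the filter only, so that nothing is read from these calls and counts.

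Beside Kcnj10 and Kcnj16, pillar and Deiters cells at P7 were higher in Kcnk3 (2.55 ± 0.32) and Kcnb2 (1.90 ± 0.30) and lower in Kcna1 (-2.91 ± 0.35) and Kcnk2 (-1.93 ± 0.32), so that 2 of 6 other pore genes were higher and 2 lower, where 30.2% of all genes were called. The 4 that were called passed the filter through 1 class alone. The other non-hair cells included the glia, whose Kcna1 difference is given below. At P1, Kcnb2 was the only one of 2 that was called (0.86 ± 0.19; 33.6% of all genes). In glia at P7, 5 of 9 other pore genes were higher and 2 lower (29.6% of all genes called), 6 of these 7 having passed the filter through 1 class alone. Kcna1 (5.93 ± 0.25) and Kcna2 (3.09 ± 0.43), channels known from myelinated axons, stood beside Kcna6 (2.43 ± 0.49), Kcnh2 (1.69 ± 0.48) and Kcnk5 (1.38 ± 0.51); Kcnk1 (-1.56 ± 0.20) and Kcnk2 (-1.55 ± 0.46) were lower, and the auxiliary gene Kcnmb4 was higher (1.39 ± 0.43).

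The genes most like each member across cell classes were ranked by Pearson's r of log2(CPM + 10) over the class means, 8 classes at P1 and 7 at P7. With so few classes drawn from the same libraries, high values are frequent and are given as a description. At P1, Kcnj13 was most like Tmem25 (r = 0.97), Samd15 (0.961) and Rgl1 (0.957). Kcna10 was most like Nmnat3 (0.997), Gm29666 (0.997) and Cfap161 (0.996). For Kcnh7 the nearest were the neurofilament gene Nefm, Chrna9, a subunit of the efferent nicotinic receptor of HCs, and Thsd7b, with r of 0.9996, 0.9996 and 0.9995. Kcnj10 was nearest to Il18 (0.972), Eif4ebp2 (0.971) and Akr1b8 (0.971), and Kcnj16 to Vstm4 (0.983), Eif5 (0.982) and Fscn1 (0.979), while Kcnma1 was under 10 CPM in every class. At P7, Kcnj13 was nearest to Ccdc96 (0.994), Calml4 (0.992) and Pak3 (0.991), Kcna10 to genes that included Nhlh1 and Gdap1 (0.9998 and 0.9997), and Kcnh7 to Dlk2, Scn3b (each 0.995) and Nmnat3 (0.994). Kcnma1 was nearest to Frmpd4 (0.996), Asphd2 (0.99) and Ccdc65 (0.988), Kcnj10 to Tomm40 (0.974), Epb41l4b (0.97) and Commd6 (0.964), and Kcnj16 to Snph (0.986), Phyhipl (0.979) and Gm10499 (0.979). Dlk2 is one of the 12 hair cell markers of the gate. Among the members, Kcnj13 and Kcna10 had an r of 0.906 at P1 and 0.927 at P7, and Kcnj10 and Kcnj16 an r of 0.598 and 0.53.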

How the data were processed

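Cochlear duct floors of wild-type CD1 mice were dissociated and captured with the 10x Genomics Chromium system, 11 libraries in all. The authors aligned reads to mm10 and counted UMIs with Cell Ranger 2.1.1, filtered cells and log normalised the counts in Seurat 2.0; these are the tools and build in the submitters' processing notes and the methods. The deposited values are the natural log of 1 plus 10000 times a gene's share of a cell's UMIs. Here they were back-transformed to CPM; UMIs worked back were whole (within 2%) for 100% of values. Classes were gated by marker lists, and their mean CPM per library (at least 5 cells) was tested as log2(CPM + 10) with limma 3.58.1 in R 4.3.3. Genes under 10 CPM on average were left out; p-values were two-sided, Benjamini-Hochberg adjusted and called under 0.05. Comparisons within an age had the library as a block. Doublets were handled only by leaving out mixed cells; no doublet caller was run. The exact permutation test in pillar and Deiters cells was added after the values were seen. The members, markers and gene lists were chosen with earlier results of these data known. Named are the 6 members, per comparison up to 8 other called channel genes with the largest differences, and the 3 most like genes per member; a few genes that this rule takes are not reported here. On simulated data with 8788 genes made like IHCs and OHCs at P7, the fit recovered 34.8% of genes changed by 1 and 91.0% of those changed by 2 on the log2 scale; like OHCs at P7 against P1 (8904 genes) it recovered 0% and 62.7%. Floors and limits cover counting error only. Between ages, p-values rest on the spread between pooled collections. Within an age, they rest on how far the difference between classes varied from collection to collection. Both spreads were drawn towards the spread pooled over genes.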

Additional observations from a re-analysis of the deposited data

Results flagged for a closer look

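The change of the inner minus outer difference from P1 to P7 was itself tested and passed for Kcnj13 (-2.71 on the log2 scale) and Kcna10 (-1.40). Among the values of the 4 P1 libraries, 5 groups had a library far from the other 3. For normally distributed values, chance alone gives such a library in about 1 of 20 groups, and 27 groups were examined. That rate does not hold where the other 3 libraries are at 0, since any UMI then sets a library apart. The groups also overlap, as OHCs are part of the HCs. Kcnma1 stood apart in OHCs of library 4 (2.98 CPM, the others at 0) and in other cells of library 1 (0.242 CPM). Kcnj10 stood apart in HCs (0.484 CPM) and OHCs (0.795 CPM) of library 1, both from a single UMI, and in pillar and Deiters cells of library 3 (26.0 CPM from 14 UMIs, the others at 31.2 to 32.2 CPM).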

How the results depend on the processing

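Each result was recomputed under up to 20 alternatives, and the causes of the changes below were not tested. For the other called channel genes, 82 recomputed differences lost the call and 544 stayed the same with all libraries kept. With 1 library left out, 51 lost the call, 172 stayed the same and 9 moved in size without a test. The members called went from 3, 1, 3 and 1 (HCs against other cells at P1, E16, P7 and E14) to 5, 3, 5 and 2 without the filter on low values. At E14 these 2 were Kcnj13 (-0.57, adjusted p = 0.0108) and Kcnj16 (-0.72, adjusted p = 0.0179), both with no UMI in HCs and with a mean in other cells under the HC floor of 9.54 CPM, while Kcnh7 was lost (adjusted p = 0.128). Without the filter they also went from 0 to 1 in IHCs and from 2 to 4 in OHCs from P1 to P7, from 2 to 1 in OHCs from E16 to P1, and from 1 to 2 in pillar and Deiters cells at P1. With 7 hair cell markers in the gate they were 2 (HCs at E16), 5 (HCs at P7), 0 (HCs at E14) and 0 (IHCs against OHCs at P7). The E14 call was also lost, leaving 0, with log2(CPM + 1), summed UMIs, without cells of more than 3000 genes, with mixed cells kept and with no replicate block. With 1 type marker they were 1 in IHCs against OHCs at E16 and 1 in IHCs from P1 to P7. With mixed cells kept they were 3 in IHCs against OHCs at P7 and 4 in OHCs from P1 to P7. With mean natural-log values they were 1 in IHCs from P1 to P7 and 1 in OHCs from E16 to P1 (Kcnj13 lost, adjusted p = 0.105), and with log2(CPM + 1) 1 in OHCs from P1 to P7 (Kcnj13 3.82, adjusted p = 0.0574). Leaving out 1 library at a time gave 1 to 2 for HCs at E16 (2 without library 1 or 3), 0 to 1 for IHCs from P1 to P7, 1 to 2 for OHCs from E16 to P1 and 2 to 3 for the interaction (Kcnh7 added without P7 library 5, which leaves 1 P7 library assumed to vary like the rest).

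With no replicate block for the library, members called were 0 in IHCs against OHCs at P7 and 1 in the interaction. In IHCs against OHCs at P1, Kcnj13 and Kcna10 stayed called, with limma adjusted p of 0.00155 and 0.00387. Kcnj13 in the interaction stayed called with an adjusted p of 0.0189. Same-numbered libraries of E16 and P1 had correlations of their deviations from -0.05 to 0.0302, and differently numbered ones from -0.0815 to 0.0943. No pairing by number was seen, but with few cells per class at E16 these correlations cannot exclude it. A replicate block over numbers 1 to 3 left 2 members called in each type and turned Kcnh7 to -0.0433 in IHCs and -0.16 in OHCs.

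The direction turned for Kcnj10 (0.65) and Kcnj16 (0.13) in HCs at P7 with mixed cells kept. The other turns were in differences that did not pass the main test. Kcnh7 in IHCs against OHCs at E16 was -0.0199 with log2(CPM + 1), -0.0311 with 4 hair cell markers and -0.12 with 1 type marker (-0.66 to 0.82 leaving out a library). With 3 type markers, which left no test, Kcnh7 was -1.08 there, and Kcnj13 went from 1.11 to 3.25 without a turn. At P7, Kcnj10 was -0.10 with summed UMIs and -1.35 with mixed cells kept, and Kcnj16 0.22 without cells of more than 3000 genes. Kcna10 in IHCs from P1 to P7 was 0.000276 with summed UMIs (-0.38 to 0.13 leaving out a library). Leaving out a library, Kcnh7 ranged from -0.54 to 0.57 in IHCs and from -0.18 to 0.19 in OHCs from E16 to P1, and from -0.10 to 2.09 in the interaction.

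All genes called moved by over 1.5 times as follows. With no replicate block they fell from 3649 to 2371 (HCs at E16), 876 to 314 (HCs at E14), 1033 to 234, 74 to 33 and 1082 to 455 (IHCs against OHCs at P1, E16 and P7), 934 to 129 (interaction), and 2534 to 1608 and 2898 to 1100 (pillar and Deiters cells at P7 and P1). Over all alternatives the counts lay at 314 to 3861 for HCs at E14 and were as low as 234 for IHCs against OHCs at P1, 5 at E16 and 129 for the interaction. For changes with age they lay at 250 to 985 (IHCs) and 449 to 3697 (OHCs) from E16 to P1, and at 60 to 458 and 329 to 1872 from P1 to P7.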

Other observations

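The P1 libraries stood in opposite order for 2 of the channel genes. In HCs, library 1 had the highest Kcna10 (151 CPM) and the lowest Kcnh7 (58.9 CPM), and library 4 the lowest Kcna10 (35.5 CPM) and the highest Kcnh7 (125 CPM), with libraries 2 and 3 between them for both genes. The same held in IHCs (Kcna10 at 371 and 123.03 CPM, Kcnh7 at 59.9 and 119 CPM in libraries 1 and 4) and in OHCs (98.7 and 25.3 CPM, 61.5 and 124 CPM). The median depth of the IHCs was 9808 UMIs in library 1, 7380.0 in library 2, 8567 in library 3 and 5368 in library 4. With 4 libraries no correlation across them was computed.

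Kcnj13 was found in cells with high Oc90, the gene of an otoconial matrix protein, at an age when no HC held a UMI of it. These cells had 16.9 and 13.4 CPM at E14 and 0, 3.98 and 40.2 CPM at E16. In the HCs of E14 libraries 1 and 2, 3 UMIs would have been 25.5 and 15.2 CPM. No difference from HCs is therefore read at E14. At P1 the values in cells with high Oc90 were 62.4, 0, 0 and 46.7 CPM, from 16 UMIs in 11 of 133 cells. Libraries 2 and 3 held none, in 15 and 8 such cells.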
